A study of Homo sapiens with 14 samples.

Results

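The AP-1 transcription factor family was read on 14 Affymetrix expression arrays of HEK293, a line of human embryonic kidney cells. Its members here were the genes FOS, FOSB, FOSL1, FOSL2, JUN, JUNB, JUND and ATF3, chosen by name and by the probe sets that the array annotation assigns to them. They make up 8 of the 19775 genes with a symbol on the array and 20 of its 54675 probe sets. Cells carried HOXD9 with an HA tag or HOXD13 with a V5 tag, both homeodomain transcription factors, or a vector of the same tag without a HOX gene, and all were selected with the drug G418. HOXD9 and HOXD13 had 4 arrays each, a mixed population (the mix) and clones a, b and c, while either vector had 3. Each HOX line was thus 1 array, and since clones had been isolated from the mix, the 4 lines are only partly independent samples. Vector arrays carry the label of biological replicates with no word on how cultures were kept apart, and their spread may be technical. The median SD per gene was 0.05 on HA and 0.0511 on V5 vectors, and 0.268 in HOXD9 and 0.256 in HOXD13 lines. All groups share 1 estimate of the spread, so that behind each p-value comes mostly from differences between the partly independent HOX lines. The labels name no promoter for the transgenes.

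AP-1 is a dimer of proteins with a basic leucine zipper, in which the zipper holds the partners together and the basic stretch contacts DNA. Proteins of the JUN group pair with each other or with proteins of the FOS group, while FOS proteins need a JUN partner. FOS, FOSB, JUNB and ATF3 are immediate early or stress response genes, whose RNA rises shortly after serum, growth factors or stress without new protein synthesis. JUND is known for a steadier level in resting cells, and JUN is induced by stress kinases and by its own product.

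The stretches of 150 bases before the annotated start are shown for FOS, FOSB and JUNB, which had the largest mean differences between HOXD13 lines and V5 vectors, FOSB untested and JUNB not called, and, for contrast, for JUN and ATF3, whose brightest probe sets lay close to the vectors. They are from RefSeq, build GRCh38.p14, and are printed 5′ to 3′ in the direction of the gene, ending at the base before the start. Capitals mark TGACG (the first part of the cyclic AMP response element), TGACATCA (the variant known from the JUN promoter) and TATAAA (the TATA box). ATF3 has 2 starts in that table, and the upstream of them is shown.
FOS, chr14:75278678-75278827, plus strand: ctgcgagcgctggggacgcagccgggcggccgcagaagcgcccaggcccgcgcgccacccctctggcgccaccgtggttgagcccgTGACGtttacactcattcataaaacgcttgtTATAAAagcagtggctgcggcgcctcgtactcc
FOSB, chr19:45467846-45467995, plus strand: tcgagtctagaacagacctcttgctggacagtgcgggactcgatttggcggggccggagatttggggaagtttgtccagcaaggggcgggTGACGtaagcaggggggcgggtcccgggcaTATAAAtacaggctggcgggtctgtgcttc
JUNB, chr19:12791336-12791485, plus strand: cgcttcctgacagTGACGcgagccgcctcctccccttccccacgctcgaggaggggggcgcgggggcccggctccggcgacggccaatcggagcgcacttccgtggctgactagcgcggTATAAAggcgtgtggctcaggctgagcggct
JUN, chr1:58784048-58784197, minus strand: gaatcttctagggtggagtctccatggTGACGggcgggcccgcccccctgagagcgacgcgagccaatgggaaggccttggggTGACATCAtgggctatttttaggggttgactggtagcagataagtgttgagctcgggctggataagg
ATF3, chr1:212565257-212565406, plus strand: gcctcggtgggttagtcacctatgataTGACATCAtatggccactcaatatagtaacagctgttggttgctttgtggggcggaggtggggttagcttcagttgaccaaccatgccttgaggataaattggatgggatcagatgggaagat

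Motifs were searched on both strands of the 250 bases before each start, which covered 7 of the 8 members. FOS had TATAAA with its first base at -33 and TGACG at -64, counted from the start site. FOSB had them at -30 and -60, and JUNB at -31 and -137, so both motifs occurred in each of these promoters. TATAAA was found in 4 of the 7 genes, counting ATF3 at -230 of its other start, against 10.7% of the 35116 promoters in the table. TGACG was found in 6 of the 7 genes against 21.2% of all promoters. The full element TGACGTCA, which holds TGACG, was found in JUND alone, at -200, against 1.65% of all promoters. TGACATCA was found in JUN at -67 and in ATF3 at -123, against 2.37% of promoters. The AP-1 motif TGANTCA was in none of the 7 genes and in 6.57% of all, the CArG box bound by serum response factor in none and in 1.16%, and the HOX13 type letters CTCGTAAA and CCAATAAA in none and in 0.117% and 0.863%. The searches for TGACG and TGACATCA were added after the sequences had been seen. A match in these letters is a description and not a measured binding site. Bases further than 250 upstream were not searched, so a motif absent here may still lie there.

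The HOXD13 probe set 207397_s_at read 6.84, 7.01 and 6.94 on the log2 scale on the V5 vector arrays. The HOXD13 mix read 12.32, clone a 12.55, clone b 12.59 and clone c 12.24. HOXD13 probe set 207398_at read 3.05 to 3.45 on these vectors and 8.39, 8.39, 8.41 and 8.26 in the mix and clones a, b and c. A further HOXD13 probe set, 236681_at, read 10.15, 10.23 and 10.42 in the mix, clone a and clone b but 8.87 in clone c, where the V5 vectors read 8.93 to 8.95. The HOXD9 probe set 205605_at read 2.52, 2.83 and 2.82 on the HA vector arrays and 6.84, 6.70, 6.65 and 7.76 in the mix and clones a, b and c of HOXD9. The other HOXD9 probe set, 205604_at, read 4.20 to 4.24 on the HA vectors and 4.33 to 4.54 in the HOXD9 lines, all under 5. The HA and V5 sets had been normalized separately, so levels are compared within a tag set. The difference between the 3′ and 5′ probe sets of ACTB, a sign of RNA quality, was 2.19 to 2.26 on the V5 vectors and 2.13, 2.01, 1.82 and 2.80 in the HOXD13 mix and clones a, b and c. On the HA vectors it was 2.29 to 2.37, against 2.26, 1.7, 2.35 and 2.10 in the HOXD9 mix and clones a, b and c. Of 10 markers of HEK293 cells, 6 reached a log2 value of 5 (NEFL, INA, VIM, KRT8, KRT18 and CDH2), while NEFM, NEFH, PAX2 and LHX1 did not on any array. Of other cell types, 1 of 10 fibroblast markers (COL1A1), 1 of 4 squamous epithelial markers on the array (SFN), 0 of 7 leukocyte and 0 of 6 endothelial markers reached it.

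Of the 20 AP-1 probe sets, 13 reached 5 on 3 or more of the 14 arrays and were tested with limma. They belong to FOS, FOSL2, JUN, JUNB, JUND and ATF3. FOSB and FOSL1 had no tested probe set, and FOS passed this filter only through the HOXD13 mix, clone a and clone b, where it was high. Each gene was read by the probe set with its largest mean, and a change was called at an adjusted p under 0.05 over all 10349 genes. FOS therefore had to differ to be tested, and its call in the HOXD13 lines is given as a description. None of the other 5 was called there. The background was 10.6% of all genes called in either direction, with 2.88% higher and 7.76% lower. With no filter, none of the 8 members was called in HOXD13, and FOS had an adjusted p of 0.0609. In the HOXD9 lines none of the 6 was called by limma, 0 had an unadjusted p under 0.05, and the background was 0.00966% of genes, which was 1 gene, called higher. The HOXD9 and HOXD13 effects differed by the test in none of the 6, against 9.63% of all genes, and 1 of the 6 had an unadjusted p under 0.05. Over probe sets, that of FOS alone was called in HOXD13, where the background was 8.68%, and 2 of the 13 had an unadjusted p under 0.05. None was called in HOXD9 against 0.0303%, or in the difference of the effects against 6.56%, with 0 and 1 at an unadjusted p under 0.05.

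**Figure D1:**
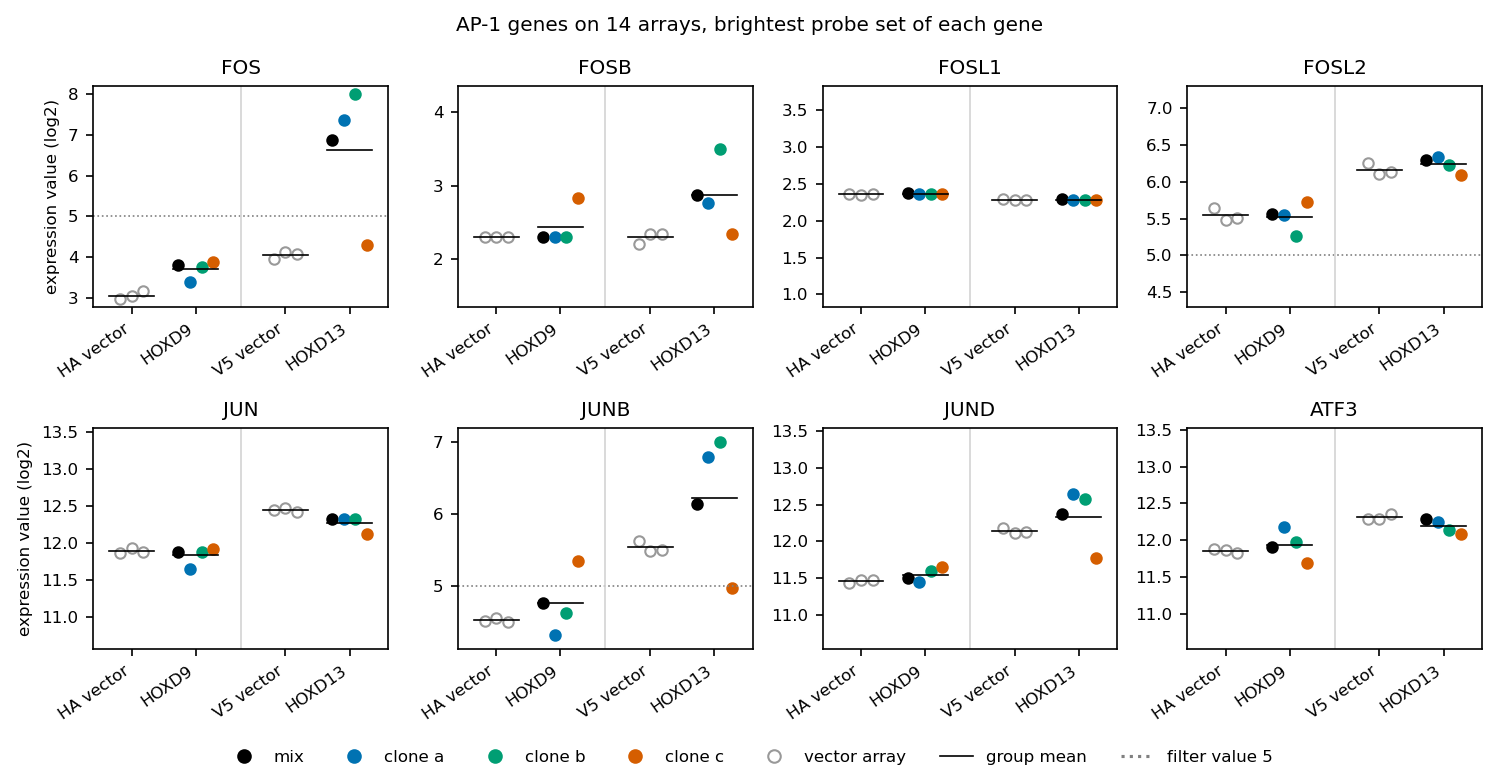
The log2 expression value of each of the 8 AP-1 genes on each array, by its brightest probe set, with 3 vector arrays and 4 HOX lines in each tag set. Short lines are group means, the dotted line is the filter value of 5, the vertical axes start at different values, and HA and V5 sets are on separate scales. FOS read 6.87 to 8.0 in 3 HOXD13 lines and 4.28 in clone c.

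FOS encodes the founding member of the FOS group and is among the most rapidly induced genes known. Its probe set 209189_at read 3.96, 4.11 and 4.08 (log2 value) on the V5 vector arrays. The HOXD13 mix read 6.87, clone a 7.37, clone b 8.0 and clone c 4.28. All 4 lines were above all 3 vectors, but clone c was only 0.23 above their mean while the mix, clone a and clone b were 2.82, 3.32 and 3.95 above it. The fitted log2 difference was 2.58 (SE 0.61), with an adjusted p of 0.0192 among filtered genes and 0.0609 with no filter. The V5 vector values lay under the filter value of 5, where the size of a difference depends on the background model. Group means were 6.63 ± 1.63 (SD, n = 4 lines) and 4.05 ± 0.08 (SD, n = 3 arrays). The call was lost when V5 vector 1, 2 or 3 was left out (adjusted p = 0.0755, 0.0711 and 0.0732), or the HOXD13 mix (0.0542) or clone a (0.0626). It was kept without clone b (0.0481), and without clone c the difference was 3.37 with an adjusted p of 1.63e-06. Leaving out clone c also raised the HOXD13 calls over all genes from 1101 to 3701. Clone c, the lowest in FOS, had the highest ACTB difference between 3′ and 5′ probe sets, and clone b the highest FOS and the lowest. With the ACTB difference as a covariate the FOS change was 2.48, adjusted p 0.00178. The 6 detected HEK293 markers had median shifts of 0.28, 0.40, 0.50 and -0.33 in the HOXD13 mix and clones a, b and c, and none was called, with 3 of the 6 at an unadjusted p under 0.05 by limma. The log2 of the summed level of all 10 markers was 14.73 to 14.75 on the V5 vectors and 14.34 to 14.91 in the HOXD13 lines. Their part in the FOS result was not tested. In a bulk lysate, fewer cells with FOS and less FOS RNA per cell cannot be told apart.

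On the HA side, FOS read 2.97, 3.03 and 3.15 on the vectors and 3.81, 3.38, 3.74 and 3.87 in the HOXD9 mix and clones a, b and c. All 4 lines were above all 3 vectors, yet each value was under the filter value of 5, close to the range where undetected transcripts lie. The fitted difference was 0.65 (SE 0.61, adjusted p = 0.477). The HOXD9 effect minus the HOXD13 effect on FOS was -1.93 (SE 0.863, adjusted p = 0.174), so the effects did not differ by this test. That difference was called when HOXD13 clone c was left out (-2.72, adjusted p = 0.000204). The HOXD13 lines then left are those through which FOS passed the filter, so this call is given as a description. The same omission raised the calls over all genes for the difference of effects from 997 to 2299.

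FOSB encodes a close relative of FOS. Its probe set 202768_at stayed under 5 on every array and was not tested. It read 2.21, 2.35 and 2.35 on the V5 vectors and 2.87, 2.77, 3.5 and 2.34 in the HOXD13 mix and clones a, b and c. The mix, clone a and clone b were above every V5 vector and clone c lay inside their range. With no filter on low values, over 19775 genes, its difference was 0.57 (SE 0.226, adjusted p = 0.231). In the HA set it read 2.30 on 3 vectors, the mix, clone a and clone b, and 2.84 in HOXD9 clone c.

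FOSL1 and FOSL2 encode the FOS-related antigens FRA1 and FRA2. FOSL1 probe set 204420_at read 2.28 to 2.38 on all 14 arrays, which is near the lowest values of the array. FOSL2 probe set 228188_at read 6.25, 6.11 and 6.13 on the V5 vectors and 6.29, 6.34, 6.23 and 6.09 in the HOXD13 mix and clones a, b and c. The groups overlapped, and the difference was 0.08 (SE 0.115, adjusted p = 0.726). On the HA vectors it read 5.65, 5.48 and 5.51 and in the HOXD9 lines 5.56, 5.55, 5.26 and 5.72. These overlapped too, with a difference of -0.02 (SE 0.115, adjusted p = 0.894). The second tested FOSL2 probe set, 225262_at, differed by 0.15 in HOXD13 and 0.00 in HOXD9, and the other 3 FOSL2 probe sets, 218880_at, 205409_at and 218881_s_at, read 2.22 to 2.38 on every array.

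JUNB encodes a JUN protein that is itself an immediate early product. Its only probe set, 201473_at, read 5.63, 5.49 and 5.51 on the V5 vectors. The HOXD13 mix read 6.15, clone a 6.80, clone b 7.0 and clone c 4.98. The mix, clone a and clone b were above all vectors by 0.61, 1.26 and 1.46 over their mean, and clone c was below all of them by 0.56. The lines thus lay on both sides of the vectors, and the fitted difference of 0.69 (SE 0.377) did not pass the test (adjusted p = 0.259). Without clone c it was 1.11 with an adjusted p of 0.00321. The same omission raised the HOXD13 calls over all genes, in either direction, from 1101 to 3701. It is therefore not read as a result about JUNB. On the HA vectors JUNB read 4.52, 4.56 and 4.50, and it read 4.77, 4.33, 4.63 and 5.35 in the HOXD9 mix and clones a, b and c. Clone a was below and the other HOXD9 lines above the vectors, with clone c highest, and the difference was 0.24 (SE 0.377, adjusted p = 0.667).

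JUND encodes the JUN protein of resting cells. Probe set 203752_s_at read 12.18, 12.12 and 12.13 on the V5 vectors. It read 12.37, 12.64 and 12.57 in the HOXD13 mix, clone a and clone b and 11.77 in clone c. As for JUNB, clone c was below every vector and the other lines above, and the difference of 0.19 (SE 0.167) did not pass the test (adjusted p = 0.505). Without clone c it was 0.38 with an adjusted p of 0.00618, where 3701 of all genes were called against 1101 with it. This too is not read as a result about JUND. The dimmer JUND probe sets 203751_x_at and 214326_x_at had the same sign pattern by line, at 0.27 and 0.08 for the mix, 0.57 and 0.59 for clone a, 0.47 and 0.31 for clone b, and -0.45 and -0.91 for clone c. On the HA vectors 203752_s_at read 11.44, 11.47 and 11.48, and 11.50, 11.45, 11.60 and 11.65 in the HOXD9 lines. The groups overlapped through clone a, and the difference was 0.09 (SE 0.167, adjusted p = 0.73). A last JUND probe set, 229117_s_at, read 2.23 to 2.24 on every array.

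JUN, a partner of FOS proteins, stood at a high and narrow level by its brightest probe set, 201464_x_at. This read 12.45, 12.47 and 12.42 on the V5 vectors and 12.33, 12.32, 12.33 and 12.12 in the HOXD13 mix and clones a, b and c. All 4 lines were below all 3 vectors, with clone c lowest, and the difference of -0.17 (SE 0.0955) did not pass the test (adjusted p = 0.271). In 201466_s_at the V5 vectors read 12.17 to 12.18 and the HOXD13 lines 12.16, 12.30, 12.27 and 12.07, on both sides of the vectors. In 201465_s_at the vectors read 9.23 to 9.50 and the lines 9.34, 9.44, 9.48 and 9.08, with only clone c outside the vectors. In 213281_at the vectors read 6.23, 6.41 and 6.10 and the lines 5.72, 6.10, 6.08 and 5.66, a difference of -0.35 with an unadjusted p of 0.0364 and an adjusted p of 0.167 over probe sets.

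In the HA set, JUN by 201464_x_at read 11.86, 11.93 and 11.88 on the vectors and 11.88, 11.65, 11.87 and 11.92 in the HOXD9 mix and clones a, b and c. The difference was -0.06 (SE 0.0955, adjusted p = 0.682). HOXD9 clone a stood apart in opposite directions by probe set. In 201466_s_at it read 10.68, where the vectors read 11.56 to 11.60 and the mix, clone b and clone c 11.50, 11.52 and 11.26. In 201465_s_at it read 9.42, above the vectors at 8.98 to 9.01, as did clone c at 9.47, while the mix and clone b read 8.70 and 8.83. The probe sets of JUN therefore disagreed on the direction in HOXD9 clone a, which also had the lowest ACTB difference of its set. The part of RNA quality in this was not tested.

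ATF3 encodes a stress-induced repressor that pairs with JUN proteins. Probe set 202672_s_at read 12.29, 12.29 and 12.36 on the V5 vectors and 12.29, 12.25, 12.14 and 12.08 in the HOXD13 mix and clones a, b and c. The lines reached down from the vectors, with clone c lowest, and the difference was -0.12 (SE 0.112, adjusted p = 0.523). On the HA vectors it read 11.88, 11.87 and 11.83 and in the HOXD9 lines 11.91, 12.18, 11.98 and 11.69. Clone a was highest here and clone c below the vectors, with a difference of 0.08 (SE 0.112, adjusted p = 0.62). The second tested ATF3 probe set, 1554980_a_at, read 7.05, 7.05 and 7.15 on the HA vectors and 7.33, 7.75, 7.40 and 7.13 in the HOXD9 lines, again with clone a highest. Its difference was 0.32 (SE 0.164), adjusted p 0.272 over probe sets. In HOXD13 it differed by -0.15 (SE 0.164, adjusted p = 0.611), with shifts of -0.16, 0.03, 0.07 and -0.55 in the mix and clones a, b and c. The third, 1554420_at, read 2.22 to 2.27 on every array.

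**Figure D2:**
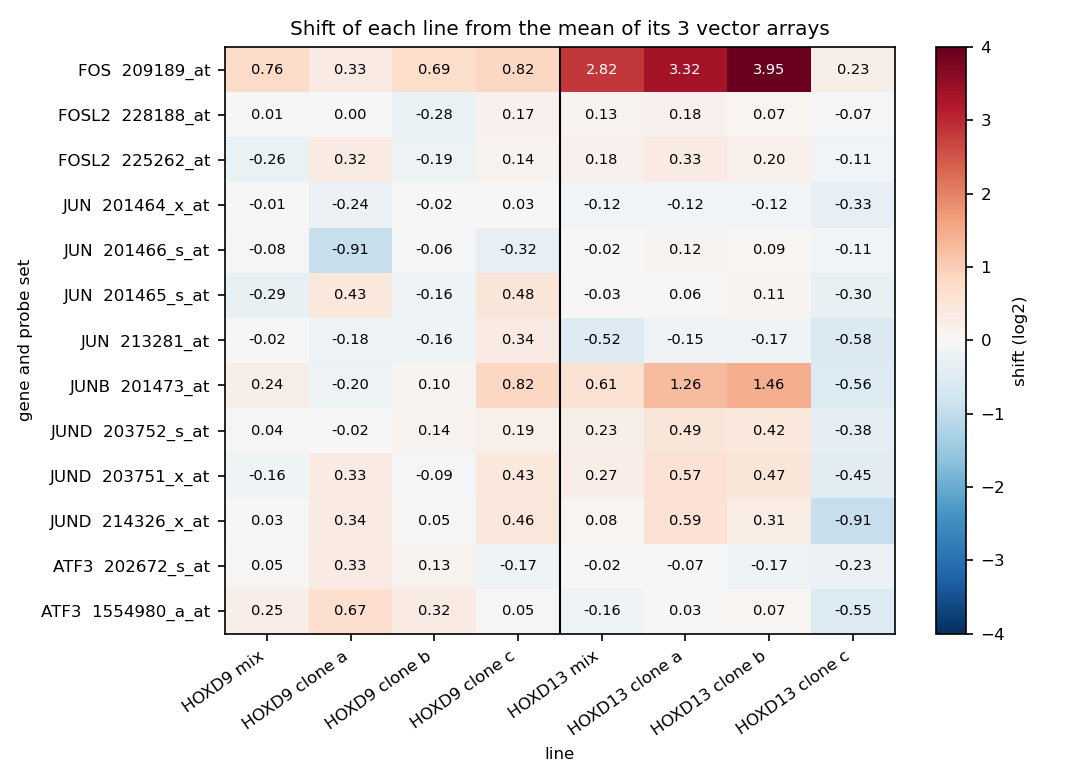
Shift of each HOX line from the mean of the 3 vector arrays of its tag, on the log2 scale, for the 13 tested AP-1 probe sets, with 1 array per line. FOS and JUNB hold the largest shifts in the HOXD13 mix, clone a and clone b, and 12 of the 13 cells of HOXD13 clone c are negative. The share of negative shifts over all probe sets was not counted.

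Line by line, HOXD13 clone c was below all V5 vectors in 12 of the 13 tested probe sets and above them in 1, FOS. The mix was above the vectors in 7 probe sets and below in 4, clone a above in 8 and below in 2, and clone b above in 8 and below in 3. The 13 probe sets belong to only 6 genes, and the share of all probe sets outside the vectors was not counted. Median SD per gene was 0.0511 on the V5 vectors and 0.256 in the HOXD13 lines, so these counts are not read as results. The median shift of the 6 genes was 0.18 for the mix, 0.33 for clone a, 0.25 for clone b and -0.28 for clone c, against -0.02, -0.04, -0.04 and -0.13 over all genes. At a shift of at least 1 on the log2 scale, FOS was up in the mix, where 1.89% of all genes were. FOS and JUNB were up in clone a, with 4.14% of all genes, and in clone b, with 5.61%. No member was up in clone c, where 2.48% of genes were.

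The HOXD9 lines had no member shifted by 1 or more in either direction. Over all genes such a rise had a share of 0.0483% for the mix, 0.116% for clone a, 0.222% for clone b and 2.19% for clone c. A fall of that size was seen in 0, 607, 0 and 1214 of the 10349 genes in these lines. Median member shifts of the HOXD9 lines were 0.04, -0.01, 0.11 and 0.18, against 0.04, 0.11, 0.00 and 0.20 over all genes. All 4 HOXD13 lines were above the vectors for 1 of the 6 genes, FOS, against 8.59% of all genes, and below for 1, JUN, against 20.3%. All 4 HOXD9 lines were above the vectors for FOS alone, against 22.4% of all genes, and below for none, against 14.1%. With 1 gene of 6 at most, these counts are not read as results about the family.

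**Figure D3:**
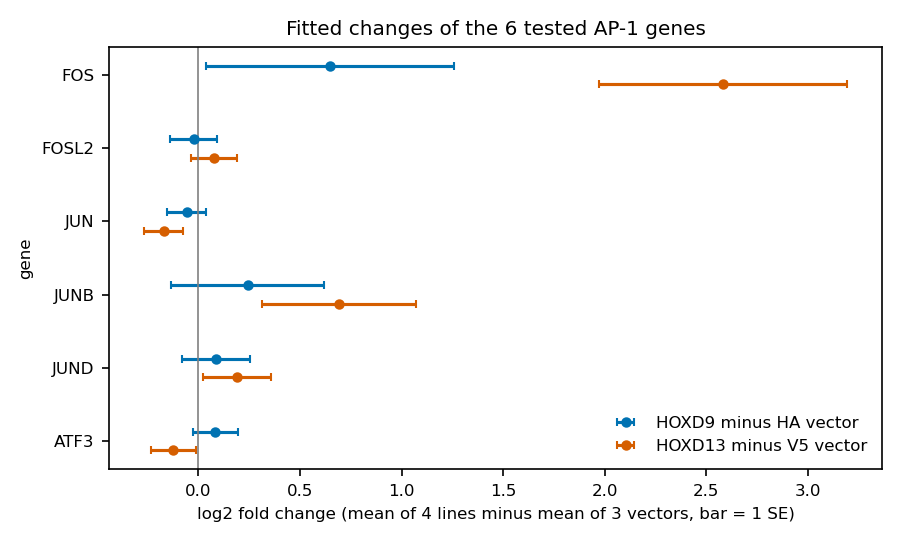
Fitted log2 fold change of the 6 tested AP-1 genes with bars of 1 standard error, for 4 HOXD9 lines minus 3 HA vectors and 4 HOXD13 lines minus 3 V5 vectors. FOS in HOXD13 lies at 2.58, but was tested only because of its high HOXD13 values, and FOSL2, JUN, JUND and ATF3 lie between -0.17 and 0.19 in both comparisons.

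Across the 7 arrays of the V5 set, the Pearson r of FOS was 0.93 with JUNB and 0.85 with JUND, and that of JUNB with JUND was 0.97. FOS and JUN had an r of -0.20, and JUN and ATF3 of 0.82. In the HA set the r of FOS was 0.66 with JUNB and 0.78 with JUND, and that of JUN with ATF3 was -0.87. These values describe 7 arrays that share a normalization, and they do not set the members apart from other genes with the same pattern by line. The share of all genes with such an r was not counted. Of 2812 genes with a range of at least 1 in the V5 set, those most like FOS were DANCR (r = 0.999), PLEKHM3, H2BC5, H2AC6 and HBEGF (each 0.998). H2AC6, a histone gene, read 4.83 to 4.90 on the V5 vectors and 6.63, 7.05, 7.48 and 5.13 in the mix and clones a, b and c. HBEGF, an EGF receptor ligand, read 6.76 to 6.97 and then 8.31, 8.54, 8.96 and 7.08. In the HA set the member with the widest range was JUNB, and of 2510 genes the most like it were BAG3 and SOX12 (each r = 0.991), AKR7A3 (0.990), HOXC5 and PLIN3 (each 0.987). BAG3, a partner of heat shock proteins, read 9.88 to 9.96 on the HA vectors and 10.23, 9.52, 9.93 and 11.12 in the HOXD9 mix and clones a, b and c.

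Of 45 listed immediate early genes other than the AP-1 members, 40 were tested. In the HOXD13 lines 10 of them were called higher, none fell and 30 did not pass the test. ARC, DUSP6 and PTGS2 of the 10, and EGR3 and CCN2 of the 30, passed the filter only through the HOXD13 lines. All of these but ARC reached 5 in no other group and so had to differ to be tested. ARC also reached 5 on 2 V5 vector arrays. Of the other 35, 7 rose (20%), with a median log2 change of 0.64. Over the 40 the median was 0.75, where the median of all genes was -0.03 and 2.88% of genes were called higher. ARC, a neuronal activity gene, changed by 3.37 (SE 0.88, adjusted p = 0.0297), with shifts of 4.01, 4.23, 5.30 and -0.06 in the mix and clones a, b and c. MYC changed by 1.65 (adjusted p = 0.0397), MAFF, a small MAF protein, by 1.65 (0.0106) and the kinase gene SGK1 by 1.41 (0.0409). The remaining called genes, ZFP36, SIK1, PTGS2, DUSP6, TRIB1 and KLF4, changed by 0.71 to 1.30. The median shift by line was 0.81 for the mix, 1.05 for clone a, 1.11 for clone b and -0.21 for clone c, and 14, 21, 23 and 2 of the 40 were up by at least 1. Of all genes, 1.89%, 4.14%, 5.61% and 2.48% were up by that much in these lines. The medians and counts by line include the 5 genes that needed the HOXD13 lines to pass the filter. The HEK293 markers had the same order by line (0.28, 0.40, 0.50 and -0.33), and the ACTB difference the reverse (2.13, 2.01, 1.82 and 2.80). Their part in this was not tested. PTGS2, which makes prostaglandins, went apart from FOS in that clone c had its largest shift, 1.5, against 0.96, 0.95 and 1.06 in the mix, clone a and clone b. The number called higher was 1, 1 and 0 without V5 vector 1, 2 or 3, 3, 2 and 3 without the HOXD13 mix, clone a or clone b, and 28 without clone c. Over all genes, the HOXD13 calls in either direction were 3701 without clone c and 1101 with it. In the HOXD9 lines limma called none of the 40, although 2 had an unadjusted p under 0.05, and their median was 0.23 where that of all genes was 0.08. The HOXD9 count was 9 without HOXD13 clone c, since the groups share 1 estimate of the spread. In that setting 1100 of all genes were called in HOXD9, against 1 as reported.

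**Figure D4:**
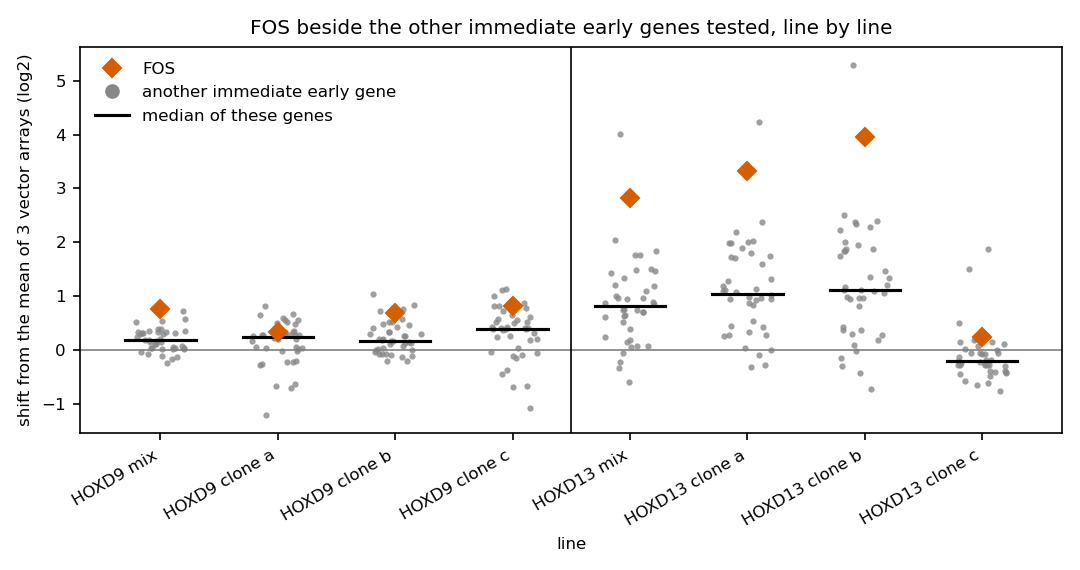
Shift from the mean of the 3 vector arrays, on the log2 scale, of FOS (diamonds) and of the other 40 tested immediate early genes (dots) in each of 8 lines, with the median of the 40 as a bar. FOS and the median are high together in the HOXD13 mix, clone a and clone b, where the medians are 0.81, 1.05 and 1.11, and low in clone c, where the median is -0.21. FOS and 5 of the 40 passed the filter only through the HOXD13 lines.

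Among genes known as AP-1 targets, 24 of 45 were tested, and in the HOXD13 lines 3 rose and 1 fell, with a median change of 0.14. HBEGF rose by 1.37 (SE 0.329, adjusted p = 0.0205), ENPP2, which encodes autotaxin, by 1.26 (SE 0.274, adjusted p = 0.0129) and BCL2L11, a gene of cell death, by 0.82 (SE 0.236, adjusted p = 0.0417). ANXA1 changed by -1.32 (SE 0.373, adjusted p = 0.0397). The share called was 16.7% beside 10.6% of all genes. By line, the median shift was 0.16, 0.43, 0.40 and -0.51 in the mix and clones a, b and c. The 3 rises became 0 without any 1 of the V5 vectors, 1 without the mix, clone a or clone b, and 9 without clone c. Calls over all genes, in either direction, were 3701 without clone c and 1101 with it. The fall of ANXA1 was lost without any 1 of the HA vectors, V5 vectors, HOXD13 mix, clone a or clone b, with an adjusted p of 0.0527 to 0.153. In HOXD9 limma called none, with 1 of the 24 at an unadjusted p under 0.05.

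The other leucine zipper genes that can pair with AP-1 proteins had 19 of 24 members tested, and in HOXD13 1 rose and 1 fell (10.5%, beside 10.6% of all genes), with a median of -0.15. MAFF rose by 1.65, as above, and DDIT3, a CEBP-related stress factor, changed by -0.58 (SE 0.115, adjusted p = 0.00887). Without V5 vector 3 their adjusted p-values were 0.0507 and 0.0524. The number called higher was 2 without HOXD9 clone a or HOXD13 clone c, and the number lower 2 without HOXD9 clone c and 3 without HOXD13 clone c. Of the kinases and factors upstream of AP-1, 28 of 39 were tested, none rose and 2 fell (7.14%, beside 10.6% of all genes), with a median of -0.04. MAP2K5, the kinase above ERK5, changed by -0.76 (SE 0.101, adjusted p = 0.00117), with -0.75, -0.74, -0.80 and -0.76 in the mix and clones a, b and c. Here clone c was like the other lines. RPS6KA2, a kinase of the RSK group, changed by -1.19 (SE 0.227, adjusted p = 0.00718), with -1.12, -1.64, -1.57 and -0.43 by line. Without HOXD13 clone c, 4 of the upstream genes were higher and 4 lower. Leaving out that array raised the calls over all genes, in either direction, from 1101 to 3701. The counts without clone c are therefore not read as results about these lists.

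Genes of AP-1 turnover and repression had 12 of 15 members tested, of which none rose and 1 fell (8.33%, beside 10.6% of all genes). COP1, which encodes a ubiquitin ligase that acts on JUN, changed by -0.37 (SE 0.0924, adjusted p = 0.0236), with -0.44, -0.31, -0.33 and -0.41 by line. That call was lost without any 1 of the V5 vectors, the mix or clone a, with an adjusted p of 0.0515 to 0.123, and without clone c 4 of the 12 were higher. Of all genes, 3701 were called in either direction without clone c and 1101 with it. Beside ATF3, all 24 listed genes of the integrated stress response were tested. None rose and 6 fell in HOXD13, with a median of -0.16, where 7.76% of all genes were lower. WARS1, a tRNA synthetase gene, changed by -1.03 (SE 0.17, adjusted p = 0.00361), TRIB3, a pseudokinase gene, by -0.66 (SE 0.099, adjusted p = 0.00202), DDIT3 by -0.58 and ASNS, for asparagine synthetase, by -0.55 (SE 0.142, adjusted p = 0.0272). PHGDH and XBP1 were the others. Without V5 vector 3 the number was 3, ASNS was lost without any 1 of the V5 vectors, the mix, clone a or clone b (adjusted p = 0.0648 to 0.109), and without HOXD13 clone c 1 of the 24 was higher. ATF3 itself was not called.

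In the HOXD9 lines none of these lists had a called gene. At an unadjusted p under 0.05 limma gave 4 of 19 zipper partners, 7 of 28 upstream genes, 4 of 12 turnover genes and 6 of 24 stress response genes. The share of all genes at that threshold was not counted, so these numbers are not read as results about the lists. The counts of called genes became 1, 5, 2 and 4 without HOXD13 clone c, and 2 for the AP-1 targets. Without HOXD9 clone b they were 1 zipper partner, 3 upstream genes and 1 turnover gene. Over all genes the HOXD9 calls were 1100 without HOXD13 clone c and 880 without HOXD9 clone b, against 1 as reported.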

How the data were processed

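The authors deposited 1 expression value per probe set and array on a log2 scale, made with GCRMA per the submitters' processing notes. No version or genome build is given in the sources used here. The values span 1.83 to 15.5, from which the scale was read. GCRMA subtracts a background modelled on probe sequence and equalises the distributions of arrays, and undetected transcripts end near a log2 value of 2. Sorted values of the 7 HA arrays were equal within 0.00102 and those of the 7 V5 arrays within 0.00195, with 75th percentiles of 6.27 and 7.02, so the sets had been normalized separately. Precision is limited by the number of arrays.

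Of 54675 probe sets, 41097 had 1 gene symbol, 1801 several and 11777 none listed, and 62 array controls were left out. Symbols were updated through RefSeq genes of GRCh38.p14, which matched 41043. Probe sets with a value of at least 5 on at least 3 of 14 arrays were tested (19816), and genes by the brightest of them (10349). A model of 4 group means was fitted with limma 3.58.1 in R 4.3.3 (10 residual degrees of freedom, prior 3.02), with two-sided tests and Benjamini-Hochberg adjustment. Adjusted p-values are from limma. Counts at an unadjusted p under 0.05 were not taken over all genes, so they have no background share. The fit was tested on simulated data with independent arrays and an equal spread in all groups. That test does not cover the unequal spread or the partly independent lines of these data.

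All members are named with each of their probe sets, as are both transgenes. Of each other list, up to 4 called genes with the largest change are named per comparison. The 5 genes most like the member with the widest range are named in each tag set. The remaining called immediate early and stress response genes were named after their values were seen. Members and lists were chosen with earlier results of these data known. The marker and pathway lists share members (MAFF, DDIT3 and others). Alternatives were another filter or none, probe set means, median centring, array weights, a trend in the variance, the ACTB difference as a covariate, single tag sets and leaving out arrays.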

Additional observations from a re-analysis of the deposited data

Results flagged for a closer look

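HOXD13 clone c lay apart from the other HOXD13 lines in JUN, by probe set 201464_x_at. It read 12.12 where the next line read 12.32 and the highest 12.33, so the gap was 0.963 of the range of the 4 lines, past the limit of Dixon's test. It was 1 of 26 groups of 4 lines examined over the tested AP-1 probe sets, and about 1 group in 20 would be singled out by chance.

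The HOXD9 effect differed from the HOXD13 effect by limma in 11 of the 145 distinct genes of the AP-1 lists (7.59%, beside 9.63% of all genes). Among the zipper partners the difference was 0.6681 for BATF3 (adjusted p = 0.0207), 0.8389 for DDIT3 (0.00856) and -0.9329 for MAF (0.0385). Neither effect of BATF3 or MAF was called by itself, at 0.51 and -0.16 for BATF3 and -0.43 and 0.50 for MAF, HOXD9 first. Among the upstream genes the differences were 0.709 for MAP2K2 (adjusted p = 0.0155), 0.9102 for MAP2K5 (0.00358), 1.259 for RPS6KA2 (0.0284) and -0.6746 for MEF2C (0.0458). MAP2K2, a kinase above ERK, stood at 0.38 in HOXD9 and -0.33 in HOXD13, neither of them called. For the immediate early gene PTGS2 the difference was -1.285 (adjusted p = 0.0492). PTGS2 passed the filter only through the HOXD13 lines, where it was high, so its place among the 11 is given as a description.

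In the stress response genes the differences were 0.9997 for TRIB3 (adjusted p = 0.00201), 1.471 for WARS1 (0.00402), 0.8044 for PHGDH (0.00515) and that of DDIT3. All 4 fell in HOXD13. Their HOXD9 effects were 0.34, 0.44, 0.30 and 0.26, none of them called. Under the alternatives tried, the call was lost for MEF2C in 14 of 22 (adjusted p up to 0.214), PTGS2 in 13 of 21 (0.127), MAF in 12 of 22 (0.196), RPS6KA2 in 9 of 22 (0.0743), BATF3 in 5 of 22 (0.0685) and MAP2K2 in 2 of 22 (0.0524). It was kept in all 22 for DDIT3, MAP2K5, PHGDH, TRIB3 and WARS1. The HOXD9 and HOXD13 effects were each taken against the vectors of their own tag.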

How the results depend on the processing

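The number of AP-1 genes called in HOXD13, 1 as reported, was 0 with no filter on low values, 0 with a filter at 7, which FOS could not pass, and 0 with only the 7 arrays of the tag set, and 3 without both clones c (FOS, JUNB and JUND). Leaving out 1 array at a time gave 0 to 3, the 3 without HOXD13 clone c. Of all 10349 genes, 5254 were called without both clones c and 3701 without HOXD13 clone c. The counts of 3 are therefore not read as results about the members. FOS had an adjusted p of 0.0609 with no filter and 0.1 within its tag set. No AP-1 gene was called in HOXD9 under any of these alternatives. The number that differed between the effects, 0 as reported, was 1 with array weights by group, 1 with the ACTB difference as a covariate (FOS both times, adjusted p = 0.0475 and 0.0177) and 3 without both clones c, and 0 to 1 with 1 array left out. Over all genes that number was 997 as reported, 2025 with the covariate, 3514 without both clones c and 2299 without HOXD13 clone c.

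The number of all genes called in HOXD13, 1101 as reported, was 1772 with array weights, 2596 with the ACTB covariate and 5254 without both clones c, and 303 (without V5 vector 3) to 3701 (without HOXD13 clone c) with 1 array left out. That in HOXD9, 1 as reported, was 6 with no filter, 2 with the mean of the probe sets, 50 with the ACTB covariate, 1076 without both clones c and 0 within the tag set, and 0 to 1100 with 1 array left out. It was 880 without HOXD9 clone b and 1100 without HOXD13 clone c. The immediate early genes called higher in HOXD13, 10 as reported, were 1 with no filter, 24 with array weights, 25 with the covariate, 32 without both clones c and 1 within the tag set. The causes were not tested, apart from the smaller number of arrays or genes that an alternative fixes. No call changed direction. Dim probe sets, FOSB and FOSL1 among them, limit what can be seen.

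No paired analysis was possible because the HOX lines and the vector arrays they are compared with share no replicate numbers in the labels.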
